A study of Mus musculus with 2 samples.

Results

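The Mir322 cluster is a group of microRNA genes on the mouse X chromosome, and 5 of its genes, Mir322, Mir503, Mir351, Mir542 and Mir450b, were examined in embryonic liver. They were taken by name as genes of this cluster from the 1973 microRNA genes of the count tables, and their levels were not part of the rule. Liver of mouse embryos of strain B6NCrl at embryonic day 13.5 was sequenced as 2 small-RNA libraries, replicate 1 and replicate 2, which the labels give as different biosamples. Healthy embryos of both sexes were pooled in each, no treatment or engineered allele is named, and the RNA was selected for a size below 30 bases. How many embryos went into a pool is not given in the sources used here. Both libraries belong to 1 group, so the comparisons below are between genes of the cluster and between the 2 libraries, and none is between conditions.

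MicroRNAs are cut from hairpin precursors and guide silencing complexes to messenger RNAs that pair with their seed, the bases near the 5′ end. Several hairpins can be cut from a shared primary transcript, and such a group is called polycistronic. The cluster is known for a link to growth control: miR-322, the mouse counterpart of human miR-424, and miR-503 belong to the extended miR-15/16 family, which restrains the cell cycle by silencing cyclins and Cdc25a, and both are known to increase when cultured myoblasts leave the cell cycle and differentiate. miR-351 carries the seed of the miR-125 family. The liver at this age is the main blood-forming organ of the embryo and contains immature hepatocytes, vessels and mesenchyme besides.

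The mature sequences are shown because seed identity sets the members apart from one another and ties miR-322-5p and miR-351-5p to families encoded elsewhere. They come from RefSeq (GRCm38.p6), run 5′ to 3′, and capitals mark the seed, bases 2 to 8.
miR-322-5p: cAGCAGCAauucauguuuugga
miR-503-5p: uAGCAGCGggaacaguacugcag
miR-351-5p: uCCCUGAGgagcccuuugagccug
miR-542-3p: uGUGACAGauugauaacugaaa
miR-450b-5p: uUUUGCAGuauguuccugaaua
miR-450a-5p: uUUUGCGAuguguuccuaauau
The same 7-base seed as in miR-322-5p is found in a product of 10 other listed mouse microRNA genes, and these 4 come from those with counts in both libraries.
miR-16-5p: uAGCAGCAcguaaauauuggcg
miR-15a-5p: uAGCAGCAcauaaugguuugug
miR-15b-5p: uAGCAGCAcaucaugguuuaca
miR-195a-5p: uAGCAGCAcagaaauauuggc
The seed of miR-351-5p is shared with the miR-125 sequences.
miR-125a-5p: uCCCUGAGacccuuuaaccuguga
miR-125b-5p: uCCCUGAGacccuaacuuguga
miR-503-5p has 6 bases of the miR-322-5p seed in common (bases 2 to 7) and differs at the last one. No other listed microRNA had all 7 bases of the miR-503-5p seed itself. Of the arms not shown, miR-542-5p shares its seed with a product of Mir6966, and miR-450b-3p with products of Mir6352 and Mir450-1. Over the whole length, seed included, miR-322-5p and miR-16-5p had the same base at 12 of 22 positions counted from the 5′ end. For miR-322-5p and miR-15b-5p it was 16 of 22.

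All members lie on the minus strand of chromosome X (mm10), in the order Mir322, Mir503, Mir351, Mir542 and Mir450b in the direction of transcription. Mir322 occupies 53054255 to 53054349, Mir503 occupies 53053984 to 53054054, and Mir351 occupies 53053255 to 53053353. Mir542 occupies 53049403 to 53049487 and Mir450b occupies 53047997 to 53048078. Between Mir542 and Mir450b stand 2 more hairpins, Mir450-2 (53048299 to 53048367) and Mir450-1 (53048154 to 53048244), both of which encode miR-450a-5p. All 7 fall within 6353 bases, and Mir322 and Mir503 are 200 bases apart. GENCODE M21 places no other gene over any of the 5 members: the non-coding gene C430049B03Rik lies upstream of Mir322 and the lincRNA Gm28730 between Mir542 and Mir351. In RefSeq, C430049B03Rik is drawn longer, from 53053112 to 53057190, and takes in Mir351, Mir503 and Mir322.

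Replicate 1 held 2607403 counts on the strand of the counted microRNA genes and replicate 2 held 4286742. Levels are given in CPM, the count of a gene per 1000000 of these counts. Where no read was counted, a level of up to 1.15 CPM (replicate 1) or 0.700 CPM (replicate 2) remains possible, the equivalent of 3 counts. This limit does not hold for genes whose reads fit several loci, since such reads are in no gene row. Intervals take in counting error alone and treat each read as a separate molecule. The labels name no molecular tags, so copied reads cannot be told apart, and intervals and p-values may be too small. Marker microRNAs of the tissue were present: Mir122 of hepatocytes at 79844 and 80145 CPM and Mir451a of red cell precursors at 10750 and 26342 CPM. Mir126a, listed for endothelium but also a microRNA of blood-forming cells, stood at 57502 and 54545 CPM. Its reads cannot be assigned to vessels in this bulk tissue. Of the listed genes with a row, 5 of 5 were detected for hepatocytes, 3 of 3 for endothelium, 3 of 3 for leukocytes and 4 of 5 for mesenchyme. The summed levels of these lists had ratios of replicate 2 to replicate 1 from 0.949 to 1.02. Each of these sums is carried by 1 abundant gene, and other listed genes differed more, such as Mir155 of leukocytes at 0.48 in log2 and Mir194-2 of hepatocytes at 0.23. The erythroid sum was 1.84-fold higher in replicate 2, from 17989 to 33035 CPM over 3 of 3 genes, which came from Mir451a alone: the log2 differences of Mir144 and Mir486 were -0.13 and -0.025. The skeletal muscle sum was lower in replicate 2, 531 against 889 CPM. Of its 5 listed genes with a row, 2 were detected, and Mir133a-1 and Mir133a-2 were at 0. Mir133a-1 and Mir133a-2 share 20 bases with each other and with Mir133b, so reads that fit several of them are missing from this sum. Their counts of 0 thus do not show that miR-133a was absent. Mir142 of leukocytes, Mir145 of mesenchyme and Mir1a-2 of skeletal muscle were listed but had no row under these names, so no level is given for them.

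The cluster held a few percent of the counted microRNA reads in this liver, and most of these came from Mir322. The 5 members together held 3.36% of the counts in replicate 1 and 3.38% in replicate 2, or 33742 ± 134 CPM (SD, n = 2). Mir322 (ENSMUSG00000065418.1) had 74342 counts in replicate 1 and 120693 in replicate 2, which is 28512 and 28155 CPM (28333 ± 252 CPM). It ranked 7 among all 1973 genes in both libraries. Reads that map to several places are in no gene row and not in the totals. Genes with copies are thus undercounted, and the share of the cluster and the rank of Mir322 may be too high. In bulk tissue, more cells that make a microRNA and more of it per cell cannot be told apart.

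Mir351 (ENSMUSG00000065503.1) was second, with 8219 and 15837 counts, or 3152 and 3694 CPM (3423 ± 383 CPM), at ranks 58 and 55. Mir542 (ENSMUSG00000076140.1), whose 3p arm is known to target survivin in human cells, had 2498 and 4078 counts, or 958 and 951 CPM (955 ± 4.76 CPM), at rank 100 in both libraries. Mir503 (ENSMUSG00000076122.1) had 1771 and 3005 counts, or 679 and 701 CPM (690 ± 15.4 CPM). The lowest member, Mir450b (ENSMUSG00000076050.1), had 902 and 1435 counts, or 346 and 335 CPM (340 ± 7.91 CPM). The order Mir322, Mir351, Mir542, Mir503, Mir450b was the same in both libraries, and in all 10 pairs of members the same one was higher in both. Per 100 bases of hairpin the order was also the same, with Mir322 at 29825 CPM, Mir351 at 3458 CPM, Mir542 at 1123 CPM, Mir503 at 972 CPM and Mir450b at 415 CPM. All 5 members passed the limit of at least 10 counts in each library, as did 367 of the 1973 genes.

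**Figure D1:**
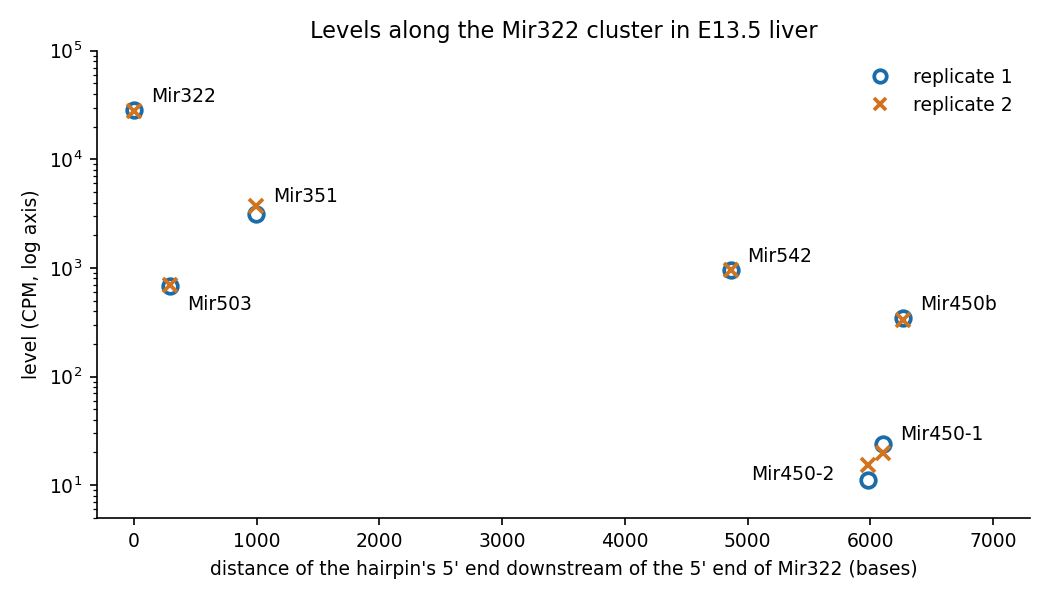
Level of the 7 hairpins of the cluster (CPM, log axis) against the distance in bases downstream of the 5′ end of Mir322, with a circle for replicate 1 and a cross for replicate 2. Mir322 stands near 28333 CPM in both libraries, its neighbour Mir503 near 690 CPM, and the 2 copies of Mir450 below 25 CPM.

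Levels did not follow the order of the hairpins. Mir503, only 200 bases from Mir322, was 41.1-fold lower than Mir322 by mean CPM. Mir351, the next hairpin downstream, was above Mir503, and Mir542, 3767 bases farther on, was also above Mir503. Mir450-1 and Mir450-2 were the lowest of the 7, at 24.2 and 19.6 CPM for Mir450-1 and 11.1 and 15.4 CPM for Mir450-2, on 63 and 84 counts and on 29 and 66 counts. The order of these copies was the same in both libraries. Their counts are uncertain, because reads that map to several places (36.7% of all reads in replicate 1 and 32.0% in replicate 2) are in no gene row. The hairpins below show why: capitals mark the longest word they share, 25 bases that include all of miR-450a-5p.
Mir450-1: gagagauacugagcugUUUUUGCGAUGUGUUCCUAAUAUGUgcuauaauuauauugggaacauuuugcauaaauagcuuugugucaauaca
Mir450-2: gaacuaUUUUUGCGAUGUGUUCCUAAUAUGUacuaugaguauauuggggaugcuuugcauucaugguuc
A read of miR-450a-5p thus fits both genes equally well, and the 35.1 CPM that both rows sum to leaves such reads out. Of the 5 members, none shared 20 bases with another microRNA hairpin of M21 on either strand. The longest word shared was 19 bases for Mir450b (with Mir450-1), 13 for Mir322 and Mir351, 12 for Mir503 and 11 for Mir542. Copies elsewhere in the genome were not searched for.

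A gene row adds up both arms of a hairpin. In the Mir322 hairpin, shown because this gene carries the cluster's total, capitals mark the 5p and 3p arms, whose reads cannot be separated here.
Mir322: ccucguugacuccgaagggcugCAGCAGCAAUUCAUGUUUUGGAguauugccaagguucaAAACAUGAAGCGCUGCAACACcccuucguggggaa
Reads on the opposite strand were nearly missing from the cluster, with 1 such count at Mir542 in replicate 1 and none at the other members in either library.

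Within the cluster, the proportions were nearly fixed between the libraries, except for Mir351. Mir322 made up 84.7% of the member counts in replicate 1 (95% exact Clopper-Pearson interval 84.5% to 85.0%) and 83.2% in replicate 2 (83.0% to 83.4%). Mir351 made up 9.37% (9.18% to 9.56%) and 10.9% (10.8% to 11.1%), so that its share went up by 1.55 percentage points and that of Mir322 changed by -1.53 points. The shares of Mir542 (2.85% and 2.81%), Mir503 (2.02% and 2.07%) and Mir450b (1.03% and 0.989%) had overlapping intervals. There were 42.0 and 40.2 reads of Mir322 for each read of Mir503, 29.8 and 29.6 for each of Mir542, and 82.4 and 84.1 for each of Mir450b. For each read of Mir351 there were 9.05 in replicate 1 and 7.62 in replicate 2. These ratios compare reads and were not calibrated to molecules, and they do not depend on the library totals.

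The change of each ratio between the libraries was described with a 95% counting interval. Of the 10 pairs of members, the 6 without Mir351 all had an interval that held 0, and the 4 with Mir351 all had one that did not. The log2 ratio of Mir542 to Mir322 changed by 0.0080 (interval -0.065 to 0.081). For Mir503 to Mir322 the change was 0.064 (-0.022 to 0.15) and for Mir450b to Mir322 it was -0.029 (-0.15 to 0.092). For Mir351 to Mir322 it was 0.25 (0.21 to 0.29). The pairs share genes and are not independent, and with 2 libraries no spread between replicates enters these intervals.

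**Figure D2:**
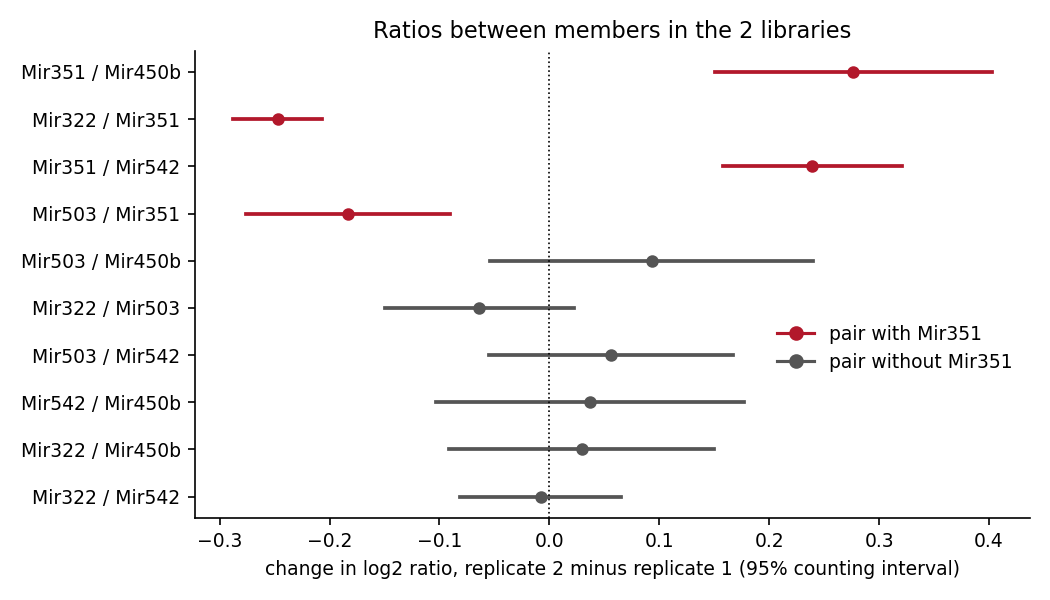
Change of the log2 ratio of each of the 10 pairs of members from replicate 1 to replicate 2, as a point with its 95% counting interval as a line. The 4 pairs with Mir351, in red, lie away from 0, and the intervals of the other 6, in grey, hold 0.

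The libraries were then compared for each gene by a two-sided exact binomial test (its counts in replicate 2 out of its counts in both, against the same share of the totals), adjusted over all 711 genes with a count (Benjamini-Hochberg). The test compares these libraries, not conditions. It called 2 of the 5 members, against 20.1% of all genes tested. Many of those genes have few counts: of the 144 genes with at least as many counts as Mir450b in each library, 91 were called, and of the 367 detected genes, 138. Mir351 was higher in replicate 2 by 0.23 in log2, or 1.17-fold (95% counting interval 0.19 to 0.27, adjusted p = 1.55e-30, exact test), where 8.58% of all genes were called in that direction. Mir322 was lower in replicate 2 by a log2 difference of -0.018 (-0.031 to -0.0050, adjusted p = 0.0353, exact test), where 11.5% of all genes were called as lower. The call of Mir322 rests on the scaling: with TMM library sizes its log2 difference was 0.012 (adjusted p = 0.215, exact test), and over the 5 alternatives its adjusted p ran from 0.0127 to 0.718. Of all genes, 61 were called higher and 82 lower, and with TMM sizes 72 higher and 63 lower. Mir503, Mir542 and Mir450b had log2 differences of 0.046, -0.010 and -0.047 and were not called (adjusted p = 0.556, 0.935 and 0.669, exact test). Over the members the median absolute log2 difference was 0.046, over the 144 genes with such counts it was 0.090, and over the 367 detected genes it was 0.17.

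The size of the differences was set against that of other genes. Of the 367 detected genes, 217 differed between the libraries by no more than Mir351 did, while 19 differed by no more than Mir322 and 13 by no more than Mir542. Among the 144 genes with at least as many counts as Mir450b in each library, 125 differed by no more than Mir351, 34 by no more than Mir503 and 35 by no more than Mir450b. Mir351 thus stood in the upper part of the differences among genes of such counts, and the other members in the lower part. Mir451a was higher in replicate 2 by 1.29 in log2, unlike the other erythroid markers Mir144 (-0.13) and Mir486 (-0.025), and the log2 difference of Mir206 of skeletal muscle was -0.74. Their part in the difference of Mir351 was not tested. With the counts of Mir451a left out of the totals, Mir351 was higher by 0.25 in log2 and Mir322 by 0.0047.

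**Figure D3:**
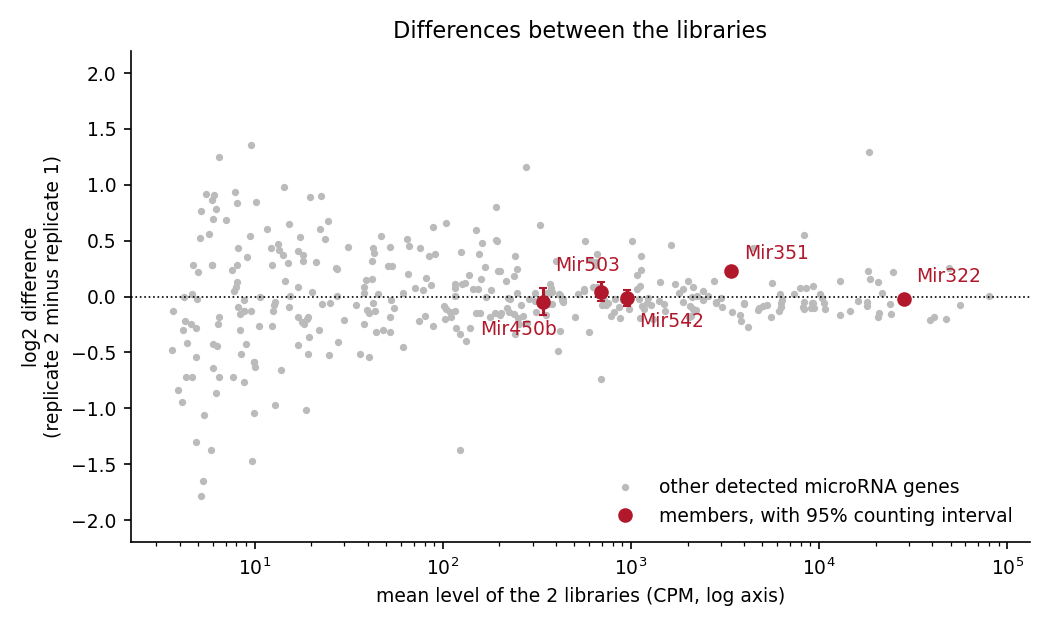
Log2 difference in CPM between the libraries (replicate 2 minus replicate 1) against mean CPM (log axis) for the 367 genes with at least 10 counts in each library. The members are in red with a 95% counting interval, and 4 of the 5 lie within 0.05 of 0 while Mir351 lies at 0.23.

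By seed, the cluster supplied the larger part of the counted reads of the families of miR-322-5p and miR-351-5p. In the family with the seed of miR-322-5p, Mir322 held 59.8% of 124373 counts in replicate 1 (95% exact interval 59.5% to 60.0%) and 59.3% of 203400 in replicate 2 (59.1% to 59.6%). Mir15a on chromosome 14 followed at 8343 and 8802 CPM, then its neighbour in the same cluster, Mir16-1, at 6385 and 6127 CPM. Mir15b on chromosome 3 stood at 3152 and 2960 CPM, with Mir16-2 beside it at 1006 and 1150 CPM, and Mir195a on chromosome 11 at 302 and 256 CPM. Mir322 was above the next gene, Mir15a, by 3.42-fold in replicate 1 and 3.20-fold in replicate 2. Mir16-1 and Mir16-2 encode an identical miR-16-5p, so their rows leave out reads that fit both, and the share of Mir322 is too high by an amount that cannot be given. Of the 10 other genes with this seed, Mir195b, Mir6342, Mir6353 and Mir6419 had no counts, and Mir497 has no row among the genes analysed here.

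In the family with the seed of miR-351-5p, Mir351 held 70.2% of 11702 counts in replicate 1 (69.4% to 71.1%) and 69.4% of 22815 in replicate 2 (68.8% to 70.0%). Mir125a, on chromosome 17, was next at 989 and 1274 CPM, ahead of Mir125b-2 at 176 and 184 CPM and Mir125b-1 at 170 and 169 CPM. The last 2 encode an identical miR-125b-5p, so reads that fit both are missing there as well. The share of Mir351 is thus too high by an amount that cannot be given. Whether Mir351 stood above miR-125b-5p cannot be told from these counts. Mir125a also stood higher in replicate 2 (log2 difference 0.37, adjusted p = 1.90e-25 by the exact test), so the share of Mir351 in this family did not go up with its level.

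**Figure D4:**
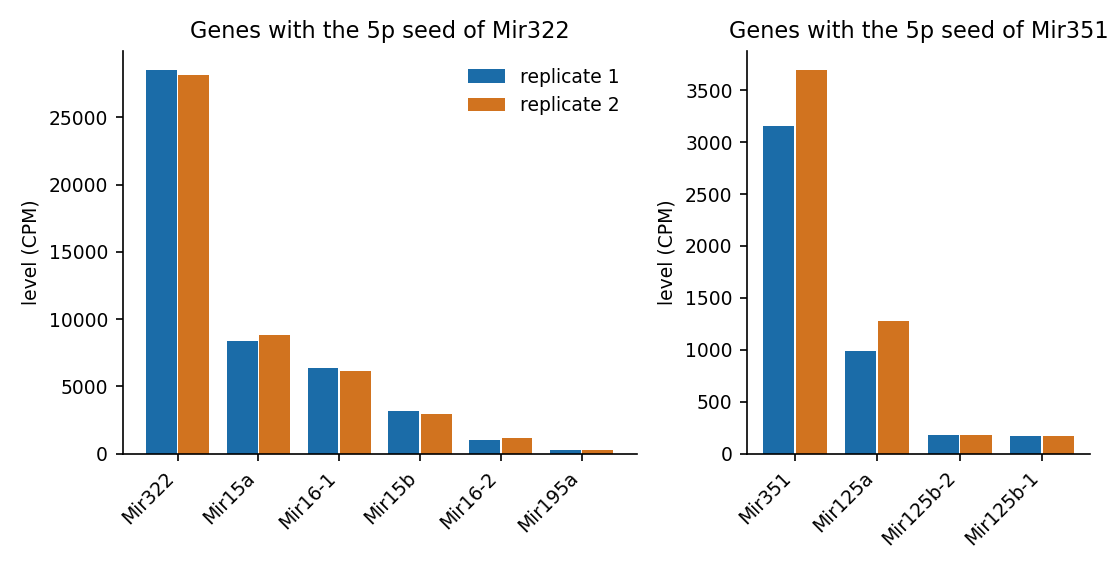
Level in CPM of the genes with counts that share the 5p seed of Mir322 (left) and of Mir351 (right), with a blue bar for replicate 1 and an orange bar for replicate 2. By counted reads, which leave out those that fit several genes, Mir322 and Mir351 are the highest of their families in both libraries.

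For comparison, other groups of microRNA genes were formed from genes on the same strand with gaps of at most 10 kb and at least 3 detected genes. There were 14 such groups, and the ratio of the highest to the lowest gene by mean CPM ran from 2.40 to 4385, with a median of 56.8. The cluster of Mir322 came second at 2137, from Mir322 to Mir450-2, below the Mir411 group on chromosome 12. The groups differ in size, with 30 detected genes in the Mir411 group, 7 in that of Mir322, 6 in miR-17-92 and 3 in miR-106b-25. A ratio of highest to lowest cannot fall when genes are added, so places by this ratio depend on group size. In the miR-17-92 cluster the ratio was 1124, from Mir17 at 49109 CPM to Mir19b-1 at 43.7 CPM, and in the miR-106b-25 cluster it was 19.1, from Mir93 at 18260 CPM to Mir25 at 954 CPM. Leaving out genes that share 20 bases with another locus, a choice made after seeing the data, left 11 groups, and the ratio for the Mir322 cluster was then 83.2, from Mir322 to Mir450b, the fifth highest. The ratio for miR-17-92 was then 376, from Mir17 to Mir19a, so the order of these clusters turned. Mir322 held 83.9% of the level of its 7 genes, the second largest share of a highest gene among the 14 groups, whose median was 48.4%. That share was at place 2 with gaps of at most 5 kb, at place 4 with gaps of at most 50 kb and at place 1 without genes that share 20 bases. No test was made of these differences.

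**Figure D5:**
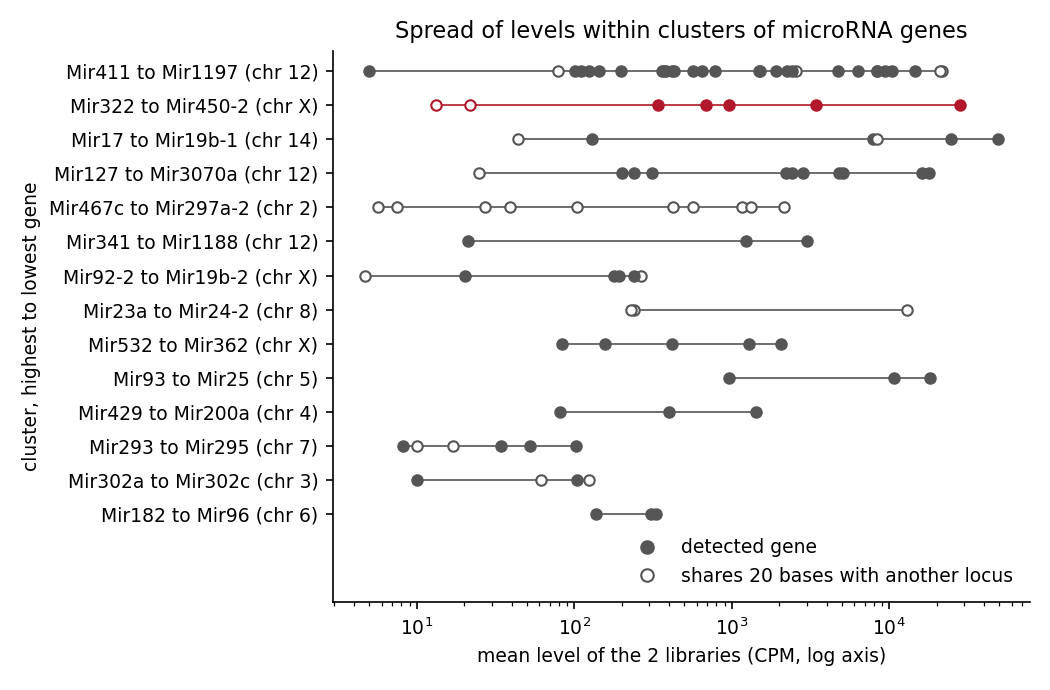
Mean CPM (log axis) of each detected gene in the 14 groups of neighbouring microRNA genes, each named by its highest and lowest gene; open circles share 20 bases with another locus. The Mir322 cluster, in red, spans from Mir322 at 28333 CPM to Mir450-2 at 13.3 CPM.

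By level in both libraries (distance in log2 CPM over the 2 libraries), the genes nearest to Mir322 were Mir20a, Mir99a and Mir21a, at distances of 0.32, 0.34 and 0.36. Nearest to Mir503 were Mir421, Mir27b and Mirlet7b, at 0.079, 0.091 and 0.099. Nearest to Mir351 were Mir484, Mir341 and Mir15b, at 0.26, 0.32 and 0.32. With 2 libraries, this likeness is one of level alone.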

How the data were processed

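Raw read counts for each microRNA gene were deposited for 2 libraries, on mm10 with GENCODE M4, per the file lists in the deposit. An aligner or counter is not given in the sources used here. Sense-strand counts were used, without the rows of unmapped, multimapping and unassigned reads (36.7% and 32.0% of reads multimapping, 19.6% and 24.2% unmapped, 5.72% and 5.64% in no gene). Names and positions came from GENCODE M21 on the same build, which matched 1894 of 1973 genes by identifier. RefSeq gave hairpins for 6 of the 7 genes of the cluster, without Mir351, and mature sequences for all 7.

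Counts were scaled to CPM. Libraries were compared by a two-sided exact binomial test per gene, adjusted over all genes with a count at a threshold of 0.05 and tested on simulated data. The simulated counts held known changes and counting error alone, so they say nothing about spread between replicates. With 1 group, edgeR 4.0.16 (TMM) and DESeq2 1.42.0 gave alternative library sizes only. Python 3.11.15 and scipy 1.17.1 did the rest. The p-values measure differences between these libraries. The rule for the members names genes and uses no values, but the cluster and the lists were chosen when an earlier analysis of these libraries, with levels and library differences over all genes, was known. Named genes were the cluster, genes with a shared seed, the 3 nearest by level, Mir451a, fixed cell type markers and the extremes of 2 other clusters. Alternatives were both strands, other scalings, totals without Mir451a, each library alone, other gaps, detection limits and a shorter seed.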

Additional observations from a re-analysis of the deposited data

Results flagged for a closer look

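A signal lay outside the counts used above at the locus of Mir497 on chromosome 11, whose 5p product has the seed of miR-322-5p. Mir497b is the gene counted there, with 1 and 4 counts on its own strand, and the opposite strand held 796 counts in replicate 1 and 1264 in replicate 2. That is 305 and 295 CPM relative to the totals used above, above the 3 counts that a count of 0 allows and below the level of Mir503 in both libraries. These reads are not in the family of Mir322 as summed above.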

How the results depend on the processing

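The summed level of the members, 33742 CPM, was 30218 CPM with both strands counted, since the total grows, 34382 CPM with Mir451a left out of the totals and 30318.5 CPM without Mir351 (chosen after seeing the data). It ran from 33647 to 33836 CPM with each library left out, and the share of Mir322 ran from 83.2% to 84.7%. The number of members called fell from 2 to 1 with TMM sizes, DESeq2 size factors and totals without Mir451a, since Mir322 was lost: its log2 difference turned from -0.018 to 0.012, 0.0090 and 0.0047. The call of Mir351 and its direction held under all 5 alternatives, with log2 differences from 0.23 to 0.26. The number of genes called ran from 135 to 153. With at least 1 count in each library, 559 genes were detected in place of 367. Without genes that share 20 bases with another locus, the ratio of highest to lowest in the Mir322 cluster was 83.2 in place of 2137, and the median over groups was 24.3 in place of 56.8. With a seed of bases 2 to 7, which brings in Mir503, Mir322 held 58.7% of its family in place of 59.6%. Of 30 alternative levels of single members, 6 moved by more than 1 SD, none by more than 1.12-fold. Those with a library left out could not move so far, since each of 2 libraries lies within 1 SD of their mean. Mir450-1 and Mir450-2 had the fewest counts of the 7 genes, and reads that fit both are left out of their rows at any depth. No paired analysis was possible because both libraries form 1 group.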

Other observations

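In counted reads, the 5 members held close to equal parts with all other X-linked microRNA genes together. The 120 genes counted on the X chromosome held 6.90% of counts in replicate 1 and 6.81% in replicate 2, and 37 of them were detected. The 5 members made up 48.7% and 49.7% of these X-linked counts, and Mir322 alone 41.3% and 41.4%. Mir322 was the highest X-linked gene in both libraries, ahead of Mir223, a myeloid microRNA, at 10021 and 10163 CPM, and Mir652 at 9510 and 9117 CPM. Both biosamples pooled male and female embryos, so levels per sex cannot be given. These values are a description and were not tested.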
